A study of Mus musculus with 3 samples.

Results

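The 33 genes described here encode soluble enzymes and helper proteins of the lysosome, the acidic compartment in which cells digest lipids, sugar chains, proteins and nucleic acids. They were taken from a fixed list of gene symbols, with cathepsins left out, and all 33 were found among the 55536 genes of the gene tables. Most are hydrolases that act one after the other on the same polymer or lipid, so that loss of a single enzyme leaves undigested material and causes a lysosomal storage disease. Activator proteins lift lipids out of membranes for these enzymes, and most of the enzymes reach the lysosome through a mannose 6-phosphate tag. Of the listed genes, 3 are neither hydrolases nor activators: Hgsnat is an acetyltransferase of the lysosomal membrane, Npc2 carries cholesterol and Grn encodes progranulin. Macrophages, which live by engulfing particles and dead cells, are known for abundant lysosomes.

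The libraries were made from polyadenylated RNA of primary macrophages that had been grown from marrow of the C57BL/6J mouse strain, and the labels put all of them at 0 minutes with 100 ng/ml of lipid A, the bacterial ligand of Toll-like receptor 4. There was 1 group of 3 libraries, replicates 1, 2 and 3, with no genetic change and no second group, so the data give levels before stimulation and their spread. Each library has its own biosample in the labels and all share 1 donor record. Sex and age were not collected, and separate animals are not stated, so part of the spread between these libraries may be technical.

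Expected counts summed to 27946070 in replicate 1, 29779410 in replicate 2 and 53447437 in replicate 3. Levels are given in TPM, transcripts per length scaled to the same total in each library. All 10 macrophage markers reached 1 TPM in each of the 3 libraries (median 404 TPM). Of 56 markers of other blood, marrow, stromal and vessel cells, 42 were under 1 TPM in every library. The megakaryocyte markers summed to 2450, 319 and 575 TPM, nearly all of it Pf4, which is also known from macrophages, and the neutrophil markers to 173, 37.7 and 338 TPM. Ribosomal RNA genes outside the mitochondrial genome took 9.75%, 1.88% and 2.50% of the counts, and mitochondrial transcripts 1.84%, 2.24% and 6.98%. In bulk RNA such as this, fewer cells of a type and less RNA per cell cannot be told apart.

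Many lysosomal genes are known in mouse and human cells to be switched on together by transcription factors of the MiT/TFE family (TFEB, TFE3, MITF and TFEC). These factors bind a promoter element built around the letters CACGTG. The promoter windows of the RefSeq table (build GRCm38.p6, 300 bases, with 250 bases before the gene start and 50 from it on) were searched for CACGTG, whose reverse complement is the same word. Windows were found for 29 of the 33 genes, not for Asah1, Galns, Hgsnat or Aga, and CACGTG stood in 7 of the 29 (24.1%), against 8.09% of the 27025 gene symbols with a window. All 7 also held TCACGTG or CACGTGA, longer words that contain CACGTG, against 4.29% of all gene symbols with a window. These backgrounds take in genes whatever their level, while the listed genes all reached 10 TPM in each library. No share over genes of like level is given, so the gap cannot be called particular to the list. A match is a description of the sequence and not a measured binding site. The stretches around the matches are printed because these are the listed genes whose promoters carry the word that the family binds, 5′ to 3′ on the strand of the gene, with CACGTG in capitals and 20 bases on either side.
Gla: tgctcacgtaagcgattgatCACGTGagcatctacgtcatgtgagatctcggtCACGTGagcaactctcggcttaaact
Glb1: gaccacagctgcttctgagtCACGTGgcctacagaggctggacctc
Arsa: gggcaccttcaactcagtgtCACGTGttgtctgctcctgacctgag
Naglu: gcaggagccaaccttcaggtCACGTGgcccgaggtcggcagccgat
Sgsh: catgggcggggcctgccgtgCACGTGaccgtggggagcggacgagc
Gaa: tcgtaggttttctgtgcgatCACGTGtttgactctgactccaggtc
Lgmn: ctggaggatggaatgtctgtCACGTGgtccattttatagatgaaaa

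The Gla stretch, at chrX:134601174-134601252 on the minus strand, held the word at 227 and again at 194 bases before the gene start, and both copies read TCACGTGA. No other listed gene with a window had that longer word, which was found for 1.12% of all gene symbols with a window. The Glb1 match lay 48 bases before the start (chr9:114401010-114401055, plus strand) and the Arsa match 16 bases before it (chr15:89477415-89477460, minus strand). The Naglu match was 73 bases (chr11:101070001-101070046, plus strand) and the Gaa match 140 bases before the start (chr11:119267803-119267848, plus strand). In Sgsh it lay 29 bases before the start (chr11:119355514-119355559, minus strand). Lgmn had 2 windows in the table, and 1 of them held the word 49 bases before its start (chr12:102439116-102439161, minus strand). CACGTG with GT before it and AC after it was found for 0 of the 29 genes and for 0.37% of all gene symbols with a window.

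Transcripts of all 33 genes reached at least 1 TPM in each library, a level reached by 19.0% of all genes and by 44.8% of protein-coding genes. The same 33 reached 10 TPM in each library, against 26.6% of protein-coding genes. Their mean levels ran from 13.6 TPM for Arsb to 12802 TPM for Psap, with a median of 111 TPM (library medians 99.2, 149 and 101 TPM, SD 27.9, n = 3). By mean level 4 genes were at 1000 TPM or more, 15 between 100 and 1000 TPM and 14 between 10 and 100 TPM. Of the 33, 32 lay above 18.6 TPM, the median of the 10548 genes at 1 TPM or more in every library. TPM is scaled per length, so that levels of different genes can be set side by side, and values below are for replicates 1, 2 and 3 in that order with the mean ± SD (n = 3) after them.

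**Figure D1:**
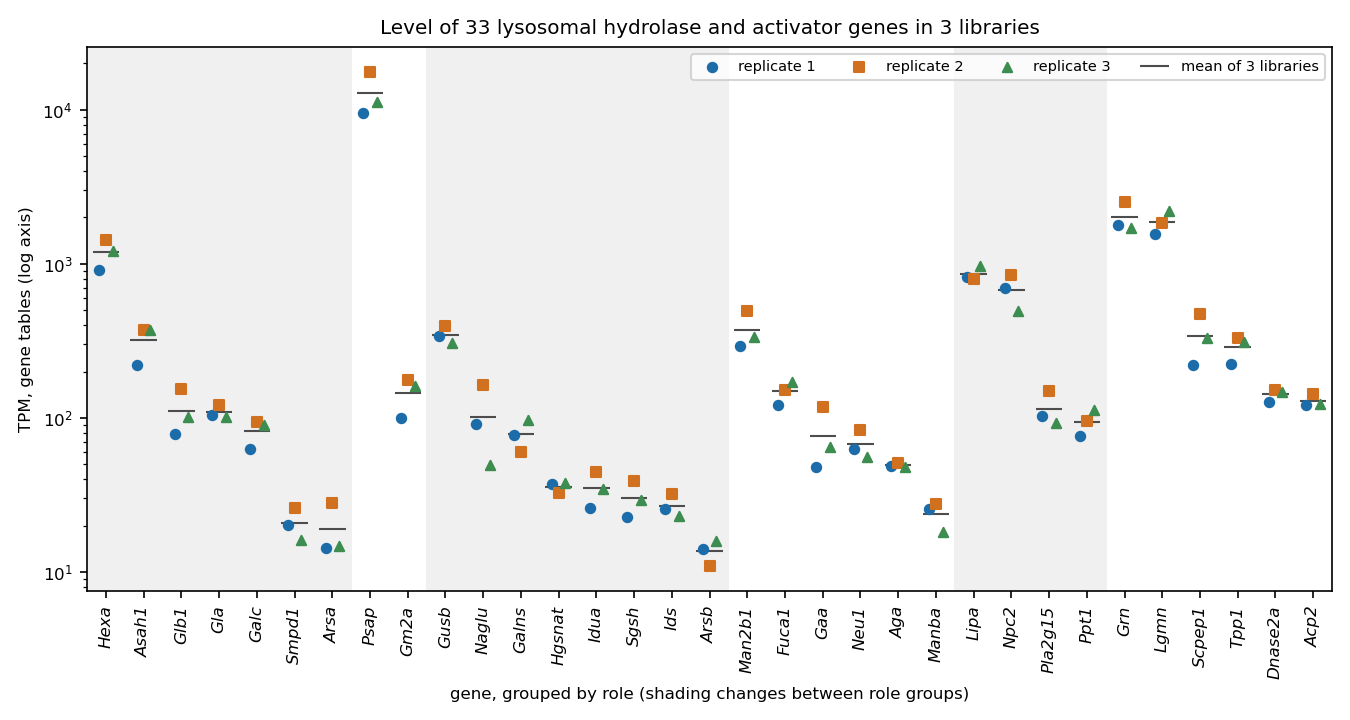
Level of each of the 33 genes in replicates 1, 2 and 3, in TPM on a log axis, with genes ordered by role (from left: sphingolipid hydrolases, activators, glycosaminoglycan enzymes, glycoprotein and glycogen hydrolases, lipid handling, and the last group of peptidases, phosphatase, nuclease and progranulin). Points are single libraries and bars are means of 3; Psap stands above all others in every library and all points lie above 10 TPM.

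The hydrolases of sphingolipids ranged over more than an order of magnitude and were led by Hexa. Hexa (chromosome 9, 59539540 to 59565109, plus strand, mm10), the alpha subunit of the β-hexosaminidase that trims GM2 ganglioside, had 913, 1434 and 1207 TPM (1185 ± 262). It ranked 86 among all genes. Asah1, acid ceramidase, had 220, 371 and 370 TPM (320 ± 87.0), lowest in replicate 1. Glb1, the β-galactosidase that acts on GM1 ganglioside and keratan sulfate, had 78.2, 154 and 101 TPM (111 ± 38.7). Gla, the α-galactosidase that cleaves globotriaosylceramide, had 104, 121 and 101 TPM (109 ± 11.0). These levels of Glb1 and Gla differed by less than their spread.

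Galc, which removes galactose from the myelin lipid galactosylceramide, had 63.1, 94.7 and 90.3 TPM (82.7 ± 17.1). At the low end, Smpd1, acid sphingomyelinase, had 20.3, 26.1 and 16.1 TPM (20.9 ± 5.04). Arsa, the sulfatase that removes sulfate from sulfatide, had 14.3, 28.0 and 14.8 TPM (19.0 ± 7.79). The libraries of Smpd1 and Arsa overlapped, so their order was not resolved.

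The activators held both the most abundant transcript of the list and a moderate one. Psap (chromosome 10, 60277627 to 60302597, plus strand), the precursor of saposins A to D, had 9516, 17631 and 11259 TPM (12802 ± 4272) and ranked 11 among all genes. Gm2a, which presents GM2 ganglioside to β-hexosaminidase, had 99.2, 176 and 161 TPM (145 ± 40.7). Both were lowest in replicate 1. Psap made up 54.5%, 62.1% and 55.5% of the expected counts of the 33 genes. Without it, the TPM of the other 32 summed to 8469, 11433 and 9811.

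The enzymes of glycosaminoglycans, the sulfated sugar chains of the cell surface and matrix, were the lowest of the 6 role groups, with a median of 35.5 TPM. Gusb, β-glucuronidase, led with 339, 397 and 306 TPM (347 ± 45.9). Naglu, which removes N-acetylglucosamine from heparan sulfate, had 91.0, 164 and 49.8 TPM (102 ± 57.8). Replicate 2 of Naglu was thus over 3 times replicate 3 on this scale, the widest spread of the list relative to its mean. Galns, a sulfatase of keratan and chondroitin sulfate, had 77.8, 59.7 and 97.0 TPM (78.1 ± 18.6), and its order of libraries was the reverse of that of Naglu.

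Hgsnat, which acetylates heparan sulfate so that Naglu can cut it, had 37.2, 32.4 and 37.6 TPM (35.8 ± 2.88). Idua, the iduronidase of heparan and dermatan sulfate, had 25.9, 44.8 and 34.8 TPM (35.2 ± 9.46). Sgsh, the sulfamidase of heparan sulfate, had 22.7, 39.0 and 29.2 TPM (30.3 ± 8.21). By these values Idua and Sgsh had the same order of libraries, with replicate 2 highest and replicate 1 lowest. In the kallisto-format tables Sgsh was instead highest in replicate 3, at 16.2, 28.3 and 33.3 TPM, and Idua had 18.0, 33.2 and 33.1 TPM. Ids, iduronate sulfatase, had 25.5, 32.0 and 23.2 TPM (26.9 ± 4.57). Arsb, the sulfatase of dermatan and chondroitin sulfate, had 14.0, 10.9 and 16.0 TPM (13.6 ± 2.58), the lowest mean of the 33. Among Hgsnat, Idua, Sgsh and Ids, neighbours in level overlapped from library to library.

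Among the hydrolases of glycoproteins and glycogen, Man2b1, the α-mannosidase of N-glycan breakdown, led with 292, 493 and 333 TPM (373 ± 106). Fuca1, which removes fucose, had 122, 152 and 172 TPM (149 ± 24.8). Gaa, the α-glucosidase that digests glycogen, had 48.2, 117 and 64.3 TPM (76.4 ± 35.7). Gaa had the widest spread of this group relative to its mean. Neu1, the sialidase, had 62.6, 83.3 and 56.1 TPM (67.3 ± 14.2). Aga, which cuts the link between asparagine and the glycan, had 48.4, 51.2 and 48.3 TPM (49.3 ± 1.69), the smallest SD of the 33. Manba, β-mannosidase, had 25.8, 27.5 and 18.3 TPM (23.9 ± 4.88), below the other 5 genes of the group in every library.

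The 4 genes of lipid handling had a median of 397 TPM, which fell in the gap between the high Lipa and Npc2 and the lower Pla2g15 and Ppt1. Lipa, the acid lipase that releases cholesterol and fatty acids from cholesteryl esters and triglycerides, had 816, 801 and 965 TPM (861 ± 90.7). Npc2, which hands the released cholesterol to the membrane protein Npc1, had 692, 846 and 497 TPM (678 ± 175). The ranges of Lipa and Npc2 overlapped. Pla2g15, a lysosomal phospholipase, had 103, 149 and 92.5 TPM (115 ± 29.9). Ppt1, the thioesterase that takes palmitate off proteins, had 76.0, 95.0 and 112 TPM (94.2 ± 17.8). Ppt1 shared 129 exon bases with Cap1 on the opposite strand, an actin-binding protein gene at 657, 341 and 467 TPM.

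The remaining group was led by Grn and Lgmn, both over 1000 TPM in every library. Grn (chromosome 11, 102430315 to 102437048, plus strand), the precursor of granulins that travels to lysosomes with sortilin or prosaposin, had 1792, 2513 and 1695 TPM (2000 ± 447). Lgmn (chromosome 12, 102394084 to 102439813, minus strand), an endopeptidase that cuts after asparagine and matures cathepsins, had 1552, 1828 and 2193 TPM (1858 ± 322). Which of Grn and Lgmn was higher changed between libraries. Scpep1, a serine carboxypeptidase, had 221, 469 and 330 TPM (340 ± 124). Tpp1, which removes tripeptides from the ends of peptides, had 223, 331 and 309 TPM (288 ± 56.9). Both were lowest in replicate 1. Dnase2a, the acid nuclease that digests the DNA of engulfed cells, had 127, 151 and 148 TPM (142 ± 12.9). Acp2, the lysosomal acid phosphatase, had 122, 143 and 123 TPM (129 ± 11.8).

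Partners that act together were not present in equal amounts of transcript. Gm2a, the activator, was at 0.109, 0.123 and 0.134 times the TPM of Hexa, so Hexa was higher in every library. Psap was at 5.31, 7.01 and 6.64 times Grn, whose protein it carries to lysosomes. Npc2 was at 4.18, 4.47 and 1.89 times Npc1, its partner in cholesterol export. Neu1 and Glb1 form a complex with the protective protein cathepsin A, and both were far below its gene Ctsa, at 0.0549, 0.0561 and 0.0494 times for Neu1 and 0.0686, 0.103 and 0.0893 times for Glb1. In the kallisto-format tables the Gm2a to Hexa ratio was 0.112, 0.125 and 0.132, and the Npc2 to Npc1 ratio 4.88, 5.10 and 2.25.

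Together the 33 genes took 2.75% of the expected counts of replicate 1 (95% Wilson interval from 2.75 to 2.76). They took 4.47% of replicate 2, with an interval from 4.47 to 4.48, and 3.56% of replicate 3, with one from 3.55 to 3.56. The intervals hold counting error alone and treat every read as independent. Reads that are copies of the same molecule would make them too narrow. The lowest count of a listed gene was 698 for Arsa in replicate 1, 810 for Arsb in replicate 2 and 1281 for Arsa in replicate 3, so that none of the 33 was near the limit of detection.

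To compare libraries gene by gene, counts were scaled by TMM factors, and each library was set against the geometric mean of the other 2 as a log2 ratio. Unlike TPM, these counts are not corrected where the transcripts of a gene differ in length between libraries. The listed genes were low together in replicate 1. Their median ratio was -0.38 there, 0.27 in replicate 2 and 0.21 in replicate 3, against 0.00, 0.00 and 0.01 for the 11886 genes tested. Replicate 1 was the lowest library for 25 of the 33 genes (75.8%), against 34.5% of all tested genes, and it was the highest for Hgsnat alone (3.03%, against 34.7%). The ratio was below 0 in replicate 1 for 31 of 33 genes, the exceptions being Hgsnat at 0.35 and Manba at 0.08. Replicate 2 was highest for 18 genes (54.5%, against 32.3%) and replicate 3 for 14 (42.4%, against 33%). By TPM, Hgsnat was highest in replicate 3 instead, at 37.2, 32.4 and 37.6 TPM in replicates 1, 2 and 3.

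**Figure D2:**
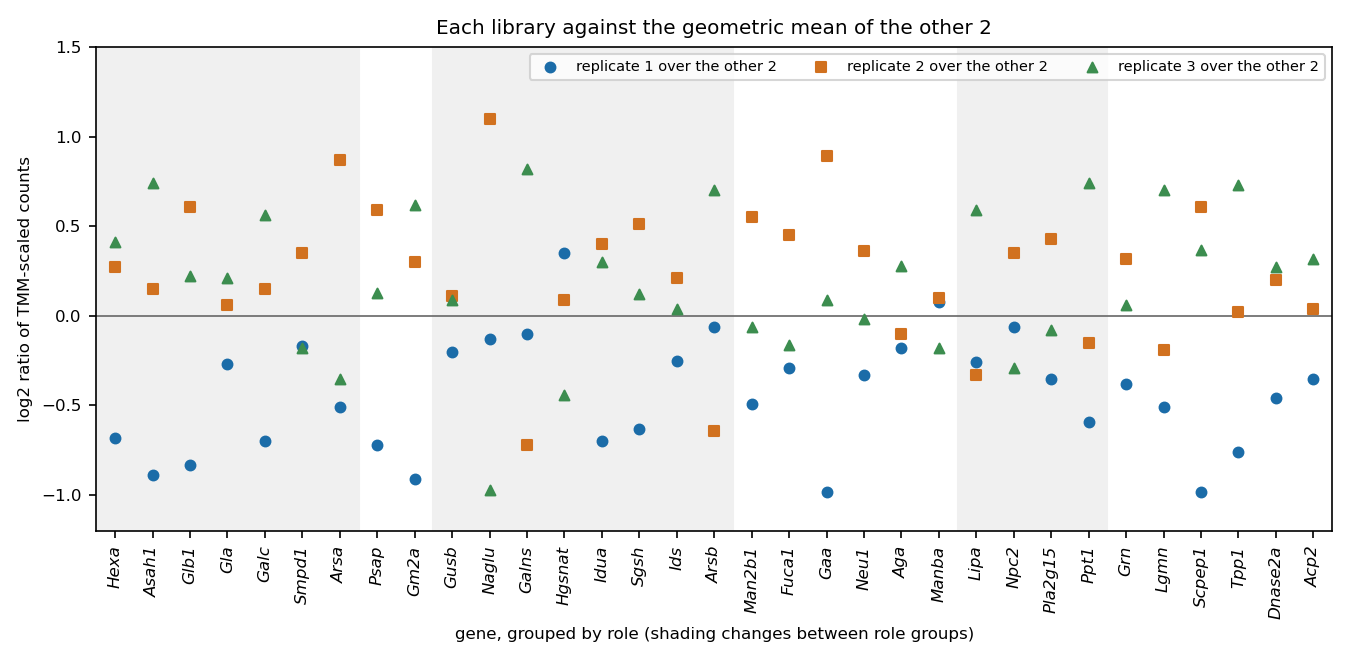
Log2 ratio of TMM-scaled counts of each library to the geometric mean of the other 2 for the 33 genes, in the same role order; each point is 1 library. Replicate 1 is below 0 for 31 of 33 genes, and the points of replicates 2 and 3 lie on both sides of 0.

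The low values of replicate 1 were deepest in Gaa and Scpep1, both at -0.98, in Gm2a at -0.91, Asah1 at -0.89 and Glb1 at -0.83. They were slight in Npc2 and Arsb, both at -0.06, and in Galns at -0.10. By role, replicate 1 was lowest for 6 of 7 sphingolipid hydrolases, both activators, 5 of 6 glycoprotein and glycogen hydrolases and all 6 of the last group. It was lowest for 4 of 8 glycosaminoglycan enzymes and 2 of 4 lipid genes. Those lowest in replicate 2 were Galns, Arsb and Lipa (9.09%, against 32.9% of all tested genes), and those lowest in replicate 3 were Naglu, Npc2, Smpd1, Manba and Hgsnat (15.2%, against 32.7%). All 7 genes with CACGTG in the printed promoter stretches had a negative ratio in replicate 1: Gaa at -0.98, Glb1 at -0.83, Sgsh at -0.63, Arsa and Lgmn at -0.51, Gla at -0.27 and Naglu at -0.13. With 31 of 33 genes below 0 there, this does not set the 7 apart.

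Against single libraries, 29 of the 33 were lower in replicate 1 than in replicate 2 (median log2 difference -0.47, and 49.8% of all tested genes were lower), and 28 were lower than in replicate 3 (-0.49, and 50%). Between replicates 2 and 3 the genes split, with 14 lower in replicate 2 (median 0.11 for replicate 2 over replicate 3, and 50.4%). On the log2 TPM scale with a pseudocount of 1, on which the median of all tested genes was itself 0.10, 0.12 and -0.23, replicate 1 was lowest for 18 genes (54.5%, against 27.0%) and highest for 0 (0.0%, against 39.3%). Replicate 2 was highest there for 26 genes (78.8%, against 40.4%) and lowest for 4 (12.1%, against 23.4%). Replicate 3 was lowest for 11 (33.3%, against 49.5%) and highest for 7 (21.2%, against 20.3%), and its median ratio was -0.04. With the ribosomal RNA and mitochondrial genes removed before scaling, a setting added after the data were seen, the ratios stayed at -0.38, 0.27 and 0.21 and 25 genes were lowest in replicate 1. The 10 macrophage markers had median ratios of 0.02, 0.25 and -0.27 and went both ways in replicate 1, with Mertk at -0.99, Cd68 at -0.70 and Csf1r at -0.65 at the low end and Itgam at 0.80 at the high end. The 12 markers of other cells that had enough counts to be tested had medians of 0.44, -1.90 and 1.59. Of the 6 megakaryocyte markers 3 were tested, with medians of 0.83, -2.09 and 1.18 and with Pf4 at 2.35 in replicate 1. The medians of replicates 1 and 3 are the ratios of Ppbp and Itga2b, which were low. Ppbp had 8.16, 1.60 and 10.4 TPM and Itga2b 0.61, 0.61 and 0.60 TPM. The part of cell makeup in the difference was not tested.

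Other lysosomal gene lists were of both kinds. Replicate 1 was lowest for 18 of 24 other lysosomal hydrolases (median ratio -0.52), 9 of 11 lysosomal membrane proteins (-0.66) and 10 of the 12 cathepsins tested of 14 (-0.33). Of the 16 subunits of the proton pump that acidifies lysosomes, 5 were lowest in replicate 1 (-0.06), 4 in replicate 2 and 7 in replicate 3. Of the 12 genes of mannose 6-phosphate tagging, sulfatase activation and sorting, 5 were lowest in replicate 1 (-0.04), 3 in replicate 2 and 4 in replicate 3. Of the MiT/TFE factors, Tfe3 had 78.7, 89.2 and 98.0 TPM, Mitf 25.8, 22.3 and 28.7 TPM, Tfec 22.7, 46.0 and 29.1 TPM and Tfeb 17.6, 35.1 and 11.4 TPM. Tfec and Tfeb were highest in replicate 2 and Tfe3 and Mitf in replicate 3, by TPM and by TMM-scaled counts alike.

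**Figure D3:**
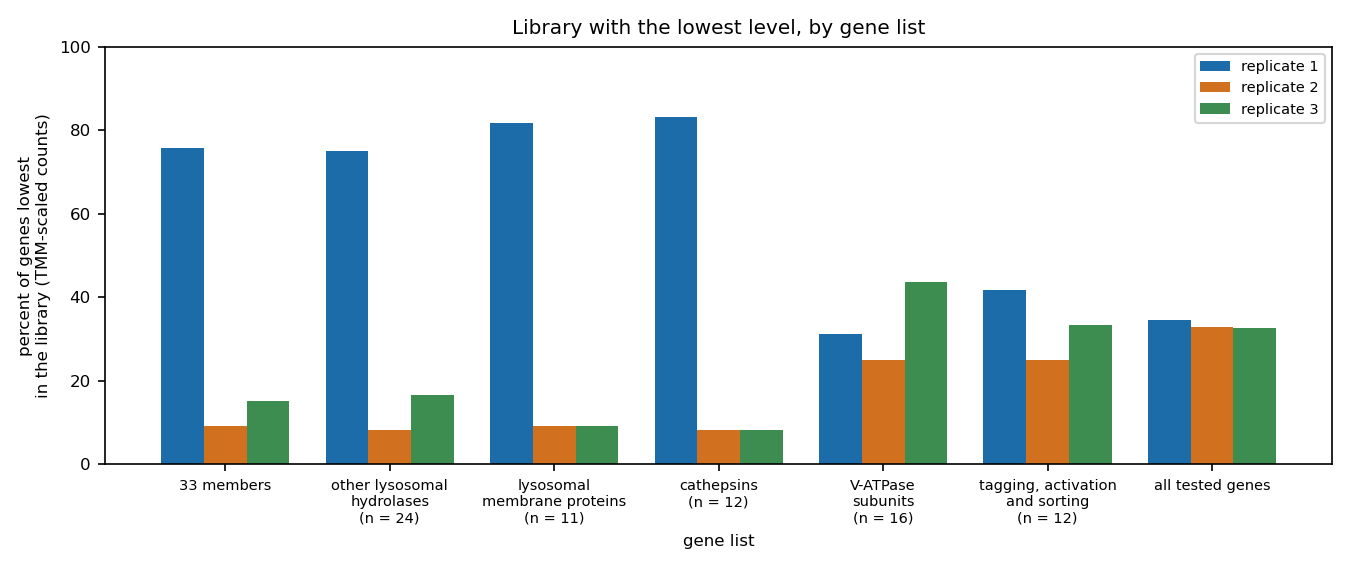
Percent of the genes of each list that were lowest in replicate 1, 2 or 3 by TMM-scaled counts, with the 33 listed genes at the left and all tested genes at the right. Replicate 1 takes 75.8% of the listed genes and 34.5% of all tested genes, and the lists of pump subunits and of tagging and sorting lie nearer to all tested genes than the other 3 lists do.

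In a test across all genes, none of the 33 was called more variable between libraries than genes of like abundance. edgeR's quasi-likelihood fit with Benjamini-Hochberg adjustment over 11886 genes called 0 of them and 0 of all genes (0.0%). At an unadjusted p under 0.05 there were 0 of the 33 and 545 of all (4.59%). Naglu had the smallest p of the 33, 0.131, with an adjusted p of 0.97 in edgeR. The median spread of the 33, as quasi-dispersion over the fitted prior, was 0.464, against 0.804 for all tested genes. The biological coefficient of variation was 0.398, and with 3 libraries a p above the threshold does not show that the libraries were alike.

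Between the highest and the lowest library, TMM-scaled counts of the 33 differed by a median of 1.66-fold, against 1.73-fold for all tested genes. Over 2-fold were 6 of the 33 (18.2%, against 36.9%): Naglu at 2.61-fold, Gaa at 2.36-fold, Asah1 at 2.13-fold, Scpep1 at 2.09-fold, Galns at 2.04-fold and Gm2a at 2.03-fold. The steadiest by these counts were Manba at 1.14-fold and Gusb, long used as a reference gene, at 1.15-fold. Psap, with its large absolute SD, differed by 1.83-fold. The order depends on the scale, since by TPM Manba had 25.8, 27.5 and 18.3 and Aga had the smallest SD (49.3 ± 1.69).

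Of the 33 genes, 30 had 2 or more annotated transcripts, and the leading transcript of a gene is the one with the highest mean TPM over the 3 libraries. In 14 of the 30 it held 90% or more of the TPM of the gene in every library of the RSEM-format table (46.7%, against 23.2% of protein-coding genes with 2 or more transcripts). In the kallisto-format table the same transcript did so in 11 of the 30 (36.7%, against 15.8%). Psap-202, for example, held 94.4%, 93.4% and 93.6% of Psap. Galc-201 held 97.7%, 97.7% and 98.7% of Galc in the RSEM-format table and 73.6%, 74.8% and 62.3% in the kallisto-format table. Asah1-201 differed more, with 93.5%, 87.3% and 94.0% of Asah1 in the RSEM-format and 51.9%, 44.7% and 62.3% in the kallisto-format table. Transcripts of non-coding types held 47.9%, 54.9% and 37.6% of Asah1 in the kallisto-format table. For Tpp1 they held 42.8%, 48.7% and 8.31% there, so the coding part of both genes depends on the table. By mean TPM in the RSEM-format table, Arsa alone was led by a transcript of a non-coding type (3.33%, against 6.21% of protein-coding genes): Arsa-201, annotated as a retained intron, held 68.3%, 67.3% and 47.7%. The coding transcript Arsa-202 had 4.30, 8.07 and 4.29 TPM, and Arsa-204, also coding, 0.23, 1.08 and 3.44 TPM. Gaa was split between the coding transcripts Gaa-201, with 46.6%, 48.2% and 74.7%, and Gaa-203, with 51.9%, 49.2% and 24.4%. Lgmn was likewise split, with Lgmn-201 at 69.3%, 66.8% and 54.1%.

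In replicate 3 the share of the leading transcript was 20 percentage points or more below both other libraries for Hgsnat, Idua, Fuca1 and Sgsh. These are 4 of 30 genes (13.3%, against 12.7% of protein-coding genes), a share at the background that says nothing particular to the listed genes, and the rule was chosen after the values were seen. The values are given because they bear on what the gene levels of these 4 hold. It was met by 0 of 30 in replicate 1 (against 1.07% in the RSEM-format and 0.839% in the kallisto-format table) and by 0 in replicate 2 (against 1.73% and 1.88%). Hgsnat-201, the coding transcript, held 79.9%, 83.0% and 28.3%, or 29.8, 26.9 and 10.7 TPM. The retained intron transcript Hgsnat-203 took 20.1%, 17.0% and 71.7%, while the TPM of the whole gene was nearly even. Idua-202 held 67.8%, 67.8% and 27.4%, with Idua-203 at 23.6%, 20.8% and 57.9%. Sgsh-201 held 97.4%, 98.6% and 62.7%, and Fuca1-201 held 65.6%, 76.5% and 36.2%. In replicate 3 the non-coding Hgsnat-203 and Fuca1-205 thus exceeded the coding transcripts that led by mean TPM. By kallisto 4 of 30 passed the same rule in replicate 3 (13.3%, against 9.63%), namely Hgsnat, Idua, Sgsh and Arsa. Hgsnat-201 held 86.9%, 79.2% and 32.9% there, Arsa-201 held 68.8%, 67.5% and 35.5%, and Fuca1-201, which did not pass, held 45.0%, 46.7% and 33.2%.

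**Figure D4:**
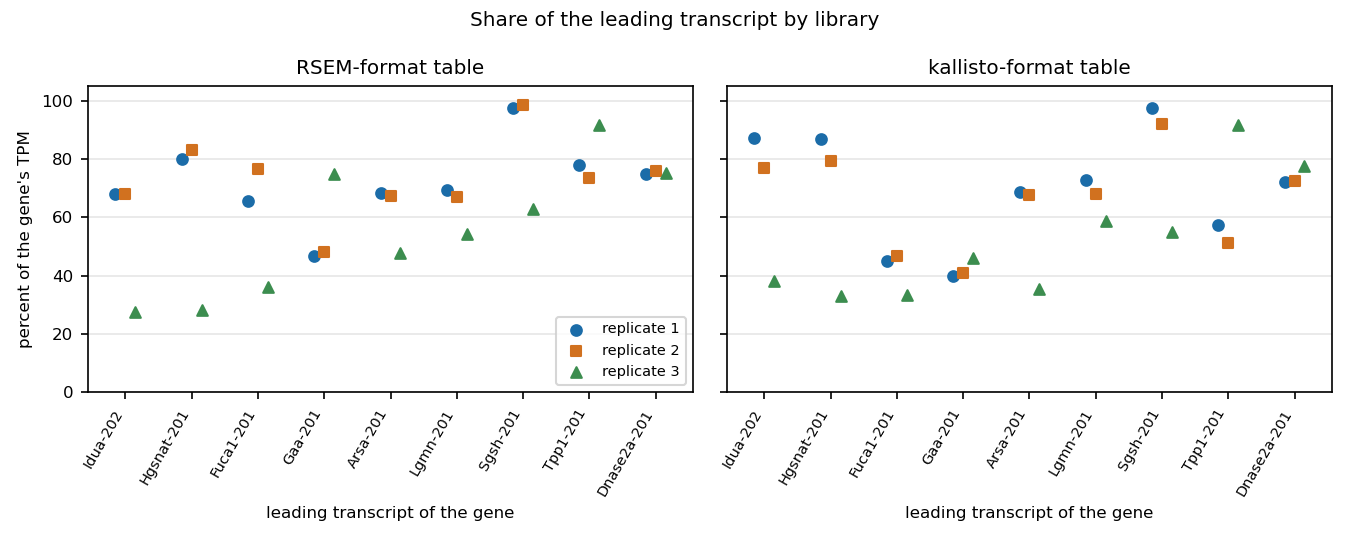
Percent of the gene's TPM held by the transcript that leads in the RSEM-format table, in that table (left) and in the kallisto-format table (right). Shown are the 9 listed genes where this was under 80% in some library of the RSEM-format table, so Asah1 and Galc are left out. Points are libraries; for Hgsnat-201 replicate 3 is at 28.3% on the left and 32.9% on the right, below the other libraries, while drops of this kind were as frequent over protein-coding genes (12.7% of genes in the RSEM-format table).

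The RSEM-format gene tables and the kallisto-format tables gave like levels once a shift of all genes was allowed for. The log2 ratio of the gene table to the kallisto-format sum had a median of 0.48, 0.45 and 0.08 over the 33, against 0.40, 0.39 and 0.06 over all genes. None of the 33 was past 1.5-fold in every library, against 0.699% of genes higher in the gene table and 0.709% lower. Relative to the median of all genes, again 0 were past it (against 0.364% higher and 1.27% lower), and 29, 29 and 28 of the 33 were within 0.15 on the log2 scale. The largest departures were Fuca1 at -0.36 and -0.49 in replicates 1 and 2 and Manba at -0.47 in replicate 3. By mean TPM, Fuca1 was also the only gene of the 30 with another leading transcript in the other table (3.33%, against 10.2%): the coding Fuca1-201 led in the RSEM-format table, and Fuca1-205, a processed transcript, in the kallisto-format table. Library by library the tables differed on the leader in replicate 1 only, where Fuca1-205 held 31.3% in the RSEM-format and 50.2% in the kallisto-format table. Fuca1-201 led both tables in replicate 2, and Fuca1-205 led both in replicate 3, with 58.6% and 60.3%. By mean TPM in the kallisto-format table, 2 of 30, Arsa and Fuca1, were led by a non-coding type (6.67%, against 7.37%).

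Counting could blur some of these genes, since 12 of the 33 share exon bases with another gene, 11 of them on the opposite strand and Glb1 with Tmppe on the same strand. Whether reads were counted by strand is not given in the sources used here. For 6 of the 12 the other gene was over 1 TPM. Ppt1 averaged 94.2 TPM, against 489 TPM for Cap1. Arsb averaged 13.6 TPM, against 5.62 TPM for Gm26527, a long non-coding RNA that shares 1948 exon bases with it. Values of Arsb are the less certain for this. Counts of Ppt1 were whole numbers in every library, so a division of reads with Cap1 does not show in them. Expected counts of 25 of the 33 were whole numbers in every library within 0.005, and those of Hexa, Glb1, Arsa, Galc, Arsb, Sgsh, Acp2 and Dnase2a were not, as happens where reads are divided between genes.

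The 33 genes lay on 15 chromosomes of build mm10, with 7 on chromosome 8 and 6 on chromosome 11. Those on chromosome 8 (Asah1, Galns, Hgsnat, Man2b1, Aga, Pla2g15 and Dnase2a) included genes lowest in each of the 3 libraries. Grn, Naglu, Gaa, Sgsh, Gm2a and Scpep1 on chromosome 11 were lowest in replicate 1 except Naglu, which was lowest in replicate 3.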

How the data were processed

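Each of the 3 libraries of polyadenylated RNA came with a gene table and 2 transcript tables. In the gene table, which is in RSEM format per the file headers, expected counts are estimates that divide shared reads and so can be fractions. The kallisto-format table gives estimated counts per transcript as the authors deposited them. Per the file headers both kinds hold TPM, which divide by effective length and then scale every library to one sum. FPKM, deposited beside TPM in the gene table, count fragments per kilobase and library size. The percent of a gene held by a transcript, also deposited, was recomputed from TPM. The labels give build mm10. The aligner, its version and the strand setting were not given in the sources used here.

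Symbols and 1-based coordinates of all 55536 genes came from GENCODE M21. Left out were 26248 numbered entries with 0 counts and 97 spike-in entries (0.0843% to 0.131% of counts). Rounded counts were fitted in edgeR 4.0.16 (R 4.3.3) with TMM scaling, filterByExpr and an intercept only (legacy glmQLFit). An upper-tail F test compared the quasi-dispersion of a gene with the prior over all genes, adjusted by Benjamini-Hochberg at 0.05. Ratios used a prior count of 0.5. Alternatives were other scalings (DESeq2 1.42.0 size factors), filters, thresholds and quantifiers, and leaving out each library. Precision rests on library totals of 27946070 to 53447437 counts. The 33 genes and all gene lists were chosen with earlier results of these data known. All 33 are named, and of other lists the 3 highest genes, the lowest, the MiT/TFE factors, partners of a listed gene and genes that overlap one. Results of some genes that this rule names are not reported here.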

Additional observations from a re-analysis of the deposited data

How the results depend on the processing

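All 33 genes kept to 1 TPM or above throughout with posterior mean TPM, in the kallisto-format tables, at 10 TPM and without any 1 library. Their median level, 111 TPM, was 87.7 TPM in the kallisto-format tables, 75.8 in FPKM, which is on another scale, and 97.6 to 126 TPM with a library left out. Of 198 recomputed gene means 158 stayed within 1 SD, a count that includes every mean with a library left out. Such a mean cannot move by 1 SD of the same 3 values, so it says nothing on stability. The 40 that moved further all came from the other settings, 27 in FPKM, 12 in the kallisto-format tables and 1 with posterior means. The replicate 1 ratio stayed negative under every setting, at -0.49 to -0.47 against single libraries, -0.33 with kallisto-format counts and -0.23 on the log2 TPM scale; the count of genes lowest there was 25 with other count scalings, 18 by TPM and 28 to 29 against single libraries. The replicate 2 ratio ran from 0.11 to 0.47 with a library left out. The replicate 3 ratio, 0.21, reversed to -0.04 on the log2 TPM scale, where the median of all genes is -0.23, and to -0.11 without replicate 1, with a range of -0.11 to 0.49 over libraries left out, so replicate 3 was high only beside replicate 1. The spread test called 0 of the 33 under every setting, while its calls over all genes were 146 with no filter on low counts, 7 without replicate 2 and 9 as DESeq2 dispersion outliers. With coding transcripts alone, 0 genes had another leading transcript between tables, since the transcript that led Fuca1 by mean TPM in the kallisto-format table is non-coding. CACGTG with GT before it and AC after it was found for 0 of the 29 genes with a window, against 7 for CACGTG. No paired analysis was possible because there was 1 group. Depth did not limit detection here, with 698 counts at least for each gene, but 3 libraries limit any statement on spread.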

Other observations

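Outside the 33 genes, the other lysosomal hydrolases were all at 1 TPM or more in every library. Pld3, which degrades single-stranded nucleic acids, led them with 848, 1257 and 1434 TPM in replicates 1, 2 and 3. Rnaset2b, a ribonuclease, had 149, 296 and 377 TPM. The lowest was Arsg, a sulfatase of heparan sulfate, with 1.96, 2.86 and 1.42 TPM. Rnaset2b has a close copy, Rnaset2a, and the split of reads between them rests on the authors' estimate. Of the sorting genes, M6pr, a mannose 6-phosphate receptor, had 301, 238 and 231 TPM, highest in replicate 1 by TPM, unlike any of the 33.

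Among cathepsins, Ctsl departed from the order of most of the list and was chosen after its values were seen. It had 2553, 699 and 728 TPM, with a log2 ratio of 1.58 in replicate 1 by TMM-scaled counts, against a median of -0.33 for the 12 tested cathepsins. Ctsd, an aspartic protease, had 13128, 14993 and 10887 TPM, so that Psap was at 0.725, 1.18 and 1.03 times its level. Whether Ctsl differed between libraries was tested only within the fit over all genes, which called 0 of them.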
